A study of Mus musculus with 8 samples.

Results

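The miRNAs named miR-297, miR-466, miR-467 and miR-669 form a large family of repeated hairpins, most of them packed into an intron of the mouse gene Sfmbt2. Members were taken by name, as every miRNA on the array whose name begins with any of these 4 numbers, with all letters and arms included. There were 25 of them among 567 mouse miRNAs: 4 named miR-297, 10 named miR-466, 8 named miR-467 and 3 named miR-669. They were measured in dendritic cells grown from C57BL/6 bone marrow with GM-CSF at 40 ng/ml. Non-adherent cells taken on day 9 were left overnight either untreated, described in the labels both as medium alone and as PBS, or with ODN1826 at 10 µM, a CpG oligonucleotide of class B and a ligand of the receptor TLR9. There were 4 samples of each group, on the 8 arrays of 1 slide, and no sample received a control oligonucleotide. Nothing in the labels says that the numbered replicates are separate mice or cultures, and the p-values therefore reflect only the variation among these 8 samples, part of which may be technical. GM-CSF cultures of bone marrow can hold macrophages and granulocytes beside dendritic cells, and in these bulk samples a change in the number of cells that hold a miRNA cannot be told apart from a change in its amount per cell.

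A miRNA hairpin is cut to a short duplex, and either of its arms, 5p or 3p, can be loaded into an Argonaute protein, where bases 2 to 8 (the seed) select target mRNAs. In the older names used on this array, a star marks the arm then held to be the minor product. Sfmbt2 encodes a Polycomb-group protein and is imprinted, with expression from the paternal copy in the early embryo and placenta. The miRNA cluster in its intron is specific to rodents and is known from embryonic stem cells and the placenta. Its hairpins arose by repeated duplication, so that many members differ by few bases.

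The array annotation (mm9) places the targets of 24 members on chromosome 2, between 10388586 and 10436549, a stretch of 47964 bases. miR-297a is placed on chromosome 10, at 42855314 to 42855332. In the RefSeq gene table of GRCm38.p6, a different build used here for names alone, 71 of 81 genes of these 4 families lie inside the span of Sfmbt2 and 10 lie elsewhere, on 7 chromosomes. Each member had 2 to 4 probes and 20 spots. For 6 members the annotation of the probes also names other members of the repeat family. The probes of miR-466e-3p are annotated to miR-466a-3p, miR-466b-3p, miR-466b-3-3p and miR-466c-3p as well. Those of miR-297b-3p are annotated to miR-297a* and miR-297c*, and those of miR-467a* to miR-467d*. miR-466a-5p is annotated with miR-466e-5p, and miR-297a and miR-669b name each other. Values of such members are not values of 1 mature miRNA, and for the rest cross-hybridisation between near-identical members was not tested.

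RefSeq's miRNA sequence table held an entry for 0 of the 25 array names and for 8 mature miRNAs of the same families, none of which has a probe on this array. They are shown because they give the kind of sequence the family is made of, with the seed in capitals.
miR-466k: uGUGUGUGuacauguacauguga
miR-466j: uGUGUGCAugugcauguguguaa
miR-467h: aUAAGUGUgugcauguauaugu
miR-669n: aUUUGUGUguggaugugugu
miR-466i-3p: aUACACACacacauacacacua
miR-466q: gUGCACACacacacauacgu
miR-467f: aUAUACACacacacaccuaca
miR-467g: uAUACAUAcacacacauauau
The first 4 hold the repeat UGUGUG and the last 4 its complement ACACAC, each searched as written within the mature sequence. UGUGUG was found in 28 of 1738 mouse mature sequences of that table (1.61%) and ACACAC in 11 (0.633%), so that all 8 relatives hold a repeat found in 39 of 1738. The 8 seeds all differ from each other. The hairpin of miR-466k, on chromosome 3 at 85467377 to 85467498 of GRCm38.p6, plus strand, shows the repeat at length, with runs of 3 or more UG units in capitals.
Mir466k hairpin: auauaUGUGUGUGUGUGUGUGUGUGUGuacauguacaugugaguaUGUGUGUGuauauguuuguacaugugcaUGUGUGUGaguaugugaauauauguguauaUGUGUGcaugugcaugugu

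Before the members, the arrays as a whole need a short account. The 75th percentile of the processed intensity was 101, 124, 144 and 120.3 on untreated replicates 1 to 4 and 157, 252, 180.1 and 280.5 on CpG replicates 1 to 4, so that every CpG array was brighter (exact two-sided permutation p = 0.0286, the smallest that 4 against 4 arrays can give). Of the 567 mouse miRNAs, 191 to 203 were detected on the untreated arrays and 213 to 236 on the CpG arrays. All 5 miRNAs listed as myeloid and dendritic markers (miR-223, miR-142-3p, miR-142-5p, miR-155 and miR-21) were detected on all 8 arrays. They are not limited to such cells, and their detection does not identify the cells. The erythroid (0 of 3), lymphoid (0 of 1) and stromal (0 of 3 on the array) markers were detected on none. The lymphoid list held miR-150 alone. miR-342-3p, miR-181a and miR-181b, also named as lymphoid miRNAs, were outside the list and were detected on all 8 arrays. Of the epithelial markers 3 of 5 were detected, each on at least 3 arrays of a group and miR-200b on all 8. The summed intensities of the 5 were 13.6 to 20.6 in untreated and 19.3 to 30.8 in CpG samples. Signals were therefore divided by each array's 75th percentile and are given as log2, with 0 at that percentile and a floor of -6.55. On this scale miR-155, which Toll-like receptor signals induce, rose by 1.92 with CpG (SE 0.24, limma adjusted p = 0.00096), and no CpG array overlapped an untreated one. miR-223, abundant in granulocytes and other myeloid cells, read 3.47, 3.62, 3.18 and 3.46 on untreated replicates 1 to 4 and 2.77, 2.65, 2.92 and 2.97 on CpG replicates 1 to 4. It fell by 0.60 (SE 0.15, limma adjusted p = 0.0284), with no overlap between the groups, but was at -0.06 with control feature scaling and 0.20 without scaling (limma adjusted p = 0.75 and 0.47). The part of a change in granulocyte content in the values below was not tested.

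The cells carried signal for most of the family, but unevenly. Of the 25 members, 12 were detected on all 8 arrays (48%, against 177 of 567 mouse miRNAs, 31.2%), 8 on some and 5 on none (20%, against 54.9%). By subfamily, 2 of 4 miR-297 members, 5 of 10 miR-466 members, 3 of 8 miR-467 members and 2 of 3 miR-669 members were detected on every array. A large cluster on chromosome 12 that is also imprinted and active in embryo and placenta, Dlk1-Dio3, had 2 of 67 members detected on all arrays and 59 on none. The embryonic stem cell cluster miR-290 to miR-295 had 0 of 14 on all arrays and 10 on none. These shares are descriptions of how many names were called present, and neither list was tested against the other.

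The 12 members found everywhere were miR-297a, miR-297b-3p, miR-466c-5p, miR-466e-3p, miR-466f-3p, miR-466g, miR-466h, miR-467a*, miR-467b*, miR-467e*, miR-669a and miR-669c. The 5 members found nowhere were miR-297b-5p, miR-466a-5p, miR-466b-5p, miR-466d-5p and miR-467d, all of which sat at the floor on all 8 arrays. The authors' deposited table of filtered intensities keeps 20 members and leaves out the same 5. Of those found on some arrays, miR-466d-3p, miR-467b and miR-467c were each detected on 3 untreated and 4 CpG arrays, and miR-669b on 2 and 4. miR-297c was detected on 1 CpG array, miR-467a on 2, miR-466f-5p on 3 and miR-467e on 4, and these were not detected on any untreated array.

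**Figure D1:**
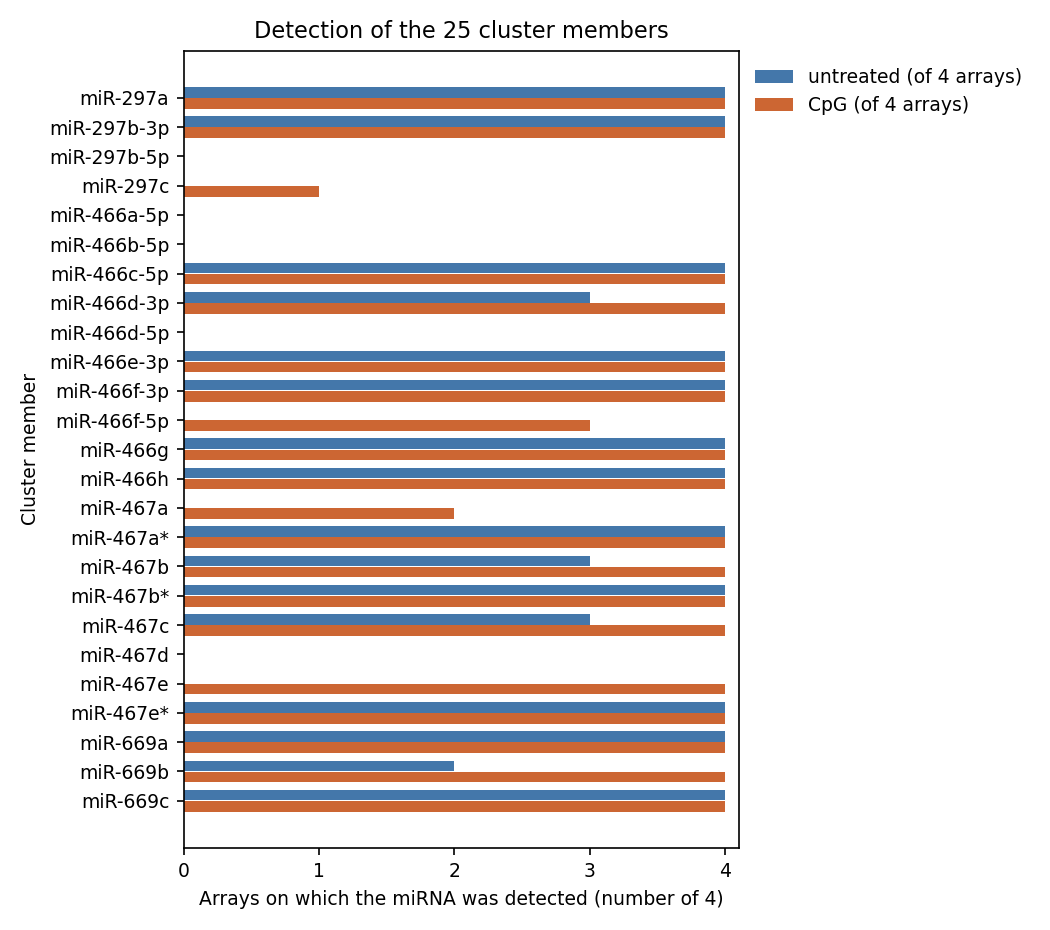
Number of arrays, of 4 in each group, on which each of the 25 members was detected, with untreated samples in blue and CpG samples in orange. 12 members have full bars in both groups, 5 have none, and no member was detected on more untreated than CpG arrays.

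Detection differed with the arm named. Of the 7 members whose name ends in 3p or a star, 6 were detected on all 8 arrays and none was missing everywhere. Of the 6 members named 5p, 1 was detected on all arrays and 4 on none, and of the 12 with no arm in the name, 5 and 1. Over all mouse miRNAs on the array, 38 of 176 named 3p or star, 18 of 67 named 5p and 121 of 324 with no arm named were detected on all arrays. For 4 hairpins the array carries both arms, with targets 35 to 43 bases apart, which shows the same split within a precursor. miR-466d-3p was detected on 7 arrays and miR-466d-5p on 0, miR-466f-3p on 8 and miR-466f-5p on 3, miR-467b* on 8 and miR-467b on 7, and miR-467e* on 8 and miR-467e on 4. In each of these hairpins the 3p or star arm was detected on more arrays than its partner. The division by arm was noticed in these values, and how well each probe binds its target was not tested.

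More members were detected with CpG. The untreated arrays detected 14, 16, 15 and 14 members and the CpG arrays 17, 19, 18 and 20, a difference in means of 3.75, with no overlap between the groups. Within the first row of the slide, which held 2 arrays of each group, the difference was 4.5, and within the second row 3. The count of all mouse miRNAs detected was higher on every CpG array as well, as was array brightness. When a member counted as present only above 1 common limit on the scaled signal, the counts were 18, 16, 18 and 18 untreated and 18, 19, 20 and 19 with CpG, a difference of 1.5 with groups that touch. Within the CpG group the count followed brightness. Replicates 1, 3, 2 and 4, at 75th percentiles of 157, 180, 252 and 280, detected 17, 18, 19 and 20 members. Within the untreated group replicate 3 was brightest and replicate 2 detected the most members. The part of brightness in the count was not tested further.

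The members together gave a small share of the summed mouse miRNA signal. That share was 0.758%, 0.625%, 1.27% and 0.545% on untreated replicates 1 to 4 and 0.697%, 1.82%, 1.39% and 1.44% on CpG replicates 1 to 4. The means were 0.799% ± 0.325 and 1.34% ± 0.468 (SD, n = 4 each). CpG replicates 2, 3 and 4 lay above every untreated array, while CpG replicate 1 lay within the untreated range. The share counts fluorescence and not molecules, since probes differ in how much signal they give per molecule. With a model-based background correction (normexp), under which dim probes keep a positive signal, the difference in mean share was 0.0459 percentage points, against 0.538 here.

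**Figure D2:**
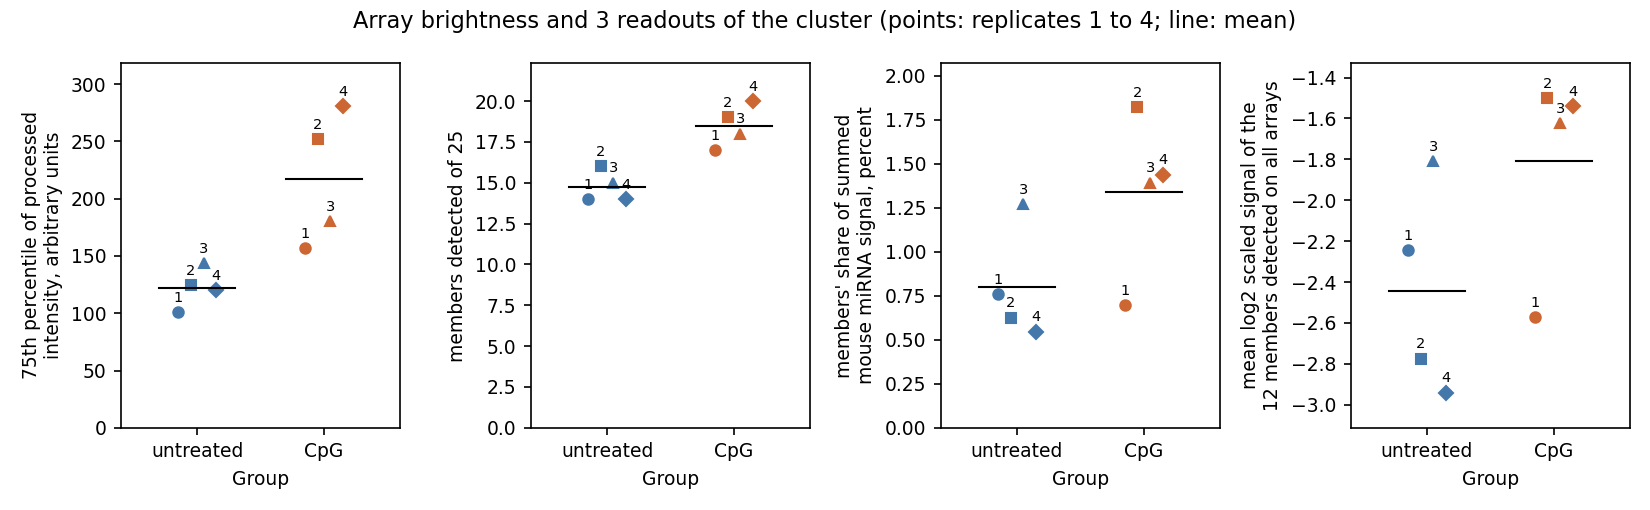
For the untreated (blue) and CpG (orange) arrays, numbered by replicate, the panels show the 75th percentile of processed intensity in arbitrary units, the number of members detected of 25, the members' share of summed mouse miRNA signal in percent, and the mean log2 scaled signal of the 12 members detected on all arrays. Lines are group means. The first 2 panels separate the groups, while in the last 2 CpG replicate 1 lies among the untreated arrays.

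In the miR-466 subfamily the brightest member in untreated cells was miR-466g, whose log2 signal was -0.62, -1.0, 0.02 and -1.11 on untreated replicates 1 to 4 and -0.94, 0.11, -0.03 and 0.00 on CpG replicates 1 to 4. miR-466f-3p read -0.59, -0.98, -0.01 and -1.09 untreated and -0.99, 0.09, -0.11 and -0.04 with CpG, close to miR-466g on every array. In both, untreated replicate 3 reached the level of CpG replicates 2, 3 and 4, and CpG replicate 1 fell among the other untreated arrays. miR-466c-5p, the only 5p-named member present on all arrays, read -2.89, -3.35, -2.32 and -3.29 untreated and -3.05, -1.95, -1.83 and -1.88 with CpG. miR-466h read -3.97, -4.53, -3.57 and -4.83 untreated and -4.31, -3.15, -3.15 and -3.24 with CpG. In both of these the 3 higher CpG arrays lay above all untreated arrays. miR-466e-3p read -3.66, -4.37, -3.59 and -4.57 untreated and -4.10, -3.08, -3.49 and -3.14 with CpG, again with CpG replicate 1 inside the untreated range.

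The log2 differences (CpG minus untreated) of these 5 were 0.46 for miR-466g (SE 0.30), 0.41 for miR-466f-3p (SE 0.30), 0.78 for miR-466c-5p (SE 0.32), 0.76 for miR-466h (SE 0.34) and 0.59 for miR-466e-3p (SE 0.29). None passed limma's test, with adjusted p between 0.106 and 0.296. 2 further miR-466 members were bright enough to test. miR-466d-3p, at -5.13 to -3.73 untreated and -4.39 to -3.10 with CpG, differed by 0.75 (SE 0.37, limma adjusted p = 0.154). miR-466f-5p was at the floor on all untreated arrays and on CpG replicate 1, and reached -6.47, -5.52 and -6.22 on CpG replicates 2, 3 and 4, a fitted difference of 0.36 (limma adjusted p = 0.223). With a floor 2 times higher the difference was 0.0073 and with a floor 2 times lower 1.11 (limma adjusted p = 0.94 and 0.065), so that no fold is given for it. It too entered the test only through the CpG group.

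All 3 miR-467 members present on every array were star arms. miR-467a*, the brightest in untreated cells, read -0.94, -1.58, -0.73 and -1.90 untreated and -1.40, -0.39, -0.76 and -0.51 with CpG. miR-467b* read -1.42, -2.07, -1.05 and -2.36 untreated and -1.77, -0.71, -1.01 and -0.84 with CpG. miR-467e* read -1.86, -2.59, -1.61 and -2.87 untreated and -2.30, -1.26, -1.56 and -1.33 with CpG. On all 3, untreated replicate 4 was lowest and CpG replicate 2 highest, and the groups overlapped. Their differences were 0.52 (SE 0.30), 0.64 (SE 0.32) and 0.62 (SE 0.32), with limma adjusted p between 0.156 and 0.201.

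miR-467e, the partner arm of miR-467e*, was the 1 member that passed the test. It entered the test only through the CpG group, since it was detected on 0 untreated and 4 CpG arrays. It read -5.81, -5.93, -5.64 and -5.89 on untreated replicates 1 to 4 and -5.45, -5.48, -5.17 and -5.22 on CpG replicates 1 to 4. Every CpG array lay above every untreated array, though all 8 values lay near the floor. The difference was 0.49 (SE 0.14, limma adjusted p = 0.0474). Set against, on each untreated array, the higher of its own signal and the lowest signal detected there, it was at least 1.40-fold higher with CpG. Its own signal was the higher on average (group means -5.82 and -5.33), so that this equals the fitted fold and moves with the floor and the processing. The call did not hold when the slide row was a block (limma adjusted p = 0.0533), although the differences within the 2 rows were 0.51 and 0.46, and it ended without any 1 of untreated replicates 1, 2 and 4 or CpG replicates 2, 3 and 4 (adjusted p 0.0587 to 0.137). When each miRNA was read by its brightest probe alone, with scaling and floor recomputed on those values, the difference was 0.07 (limma adjusted p = 0.69). A floor raised 2 times gave 0.22 (limma adjusted p = 0.109), so that both settings put it below that bound. On the main scale its probe with a target of 19 bases, the brighter, differed by 0.49 and the one of 18 bases by 0.35. Over its 22 alternatives the adjusted p ran from 0.0020 to 0.69, and 9 passed, 1 of them downward.

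The other tested miR-467 members were dim. miR-467c read -5.23 to -4.73 untreated and -5.22 to -4.34 with CpG, and so differed by 0.43 (SE 0.21, limma adjusted p = 0.155). The partner arm miR-467b read -4.61, -4.90, -4.94 and -4.89 untreated and -4.76, -5.28, -4.96 and -4.79 with CpG. It was the only tested member whose mean was lower with CpG, by 0.11 (SE 0.16, limma adjusted p = 0.611), which is less than its SE. Its own star arm, cut from the same hairpin, differed by 0.64 in the other direction, and the difference between the 2 arms was not tested.

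In the miR-669 subfamily, miR-669c read -1.27, -1.83, -0.68 and -1.78 on the untreated arrays and -1.60, -0.55, -0.46 and -0.53 on the CpG arrays. miR-669a read -2.48, -2.85, -1.95 and -2.94 untreated and -2.65, -1.72, -1.48 and -1.58 with CpG. Both had 3 CpG arrays above all untreated ones and CpG replicate 1 among them. The differences were 0.61 (SE 0.32) and 0.70 (SE 0.30), and neither passed (limma adjusted p = 0.173 and 0.112). miR-669b read -5.16, -5.10, -4.41 and -5.22 untreated and -5.15, -3.78, -3.73 and -3.76 with CpG. Its difference of 0.87 (SE 0.34, limma adjusted p = 0.0941) was the largest among the 18 tested members. It entered the test through the CpG group, having been detected on 2 untreated arrays, and shares probe annotation with miR-297a.

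miR-297b-3p, the brightest of the miR-297 members in untreated cells, read -3.06, -3.78, -2.74 and -4.20 untreated and -3.54, -2.22, -2.63 and -2.33 with CpG. miR-297a, the member placed outside chromosome 2, read -4.17, -4.35, -3.51 and -4.34 untreated and -4.23, -3.18, -2.96 and -3.07 with CpG. The order of the arrays was much the same as in the members of the Sfmbt2 intron. The probes of miR-297a are also annotated to miR-669b on chromosome 2, so its signal need not come from chromosome 10. The differences of miR-297b-3p and miR-297a were 0.76 (SE 0.37, limma adjusted p = 0.154) and 0.73 (SE 0.30, limma adjusted p = 0.108).

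**Figure D3:**
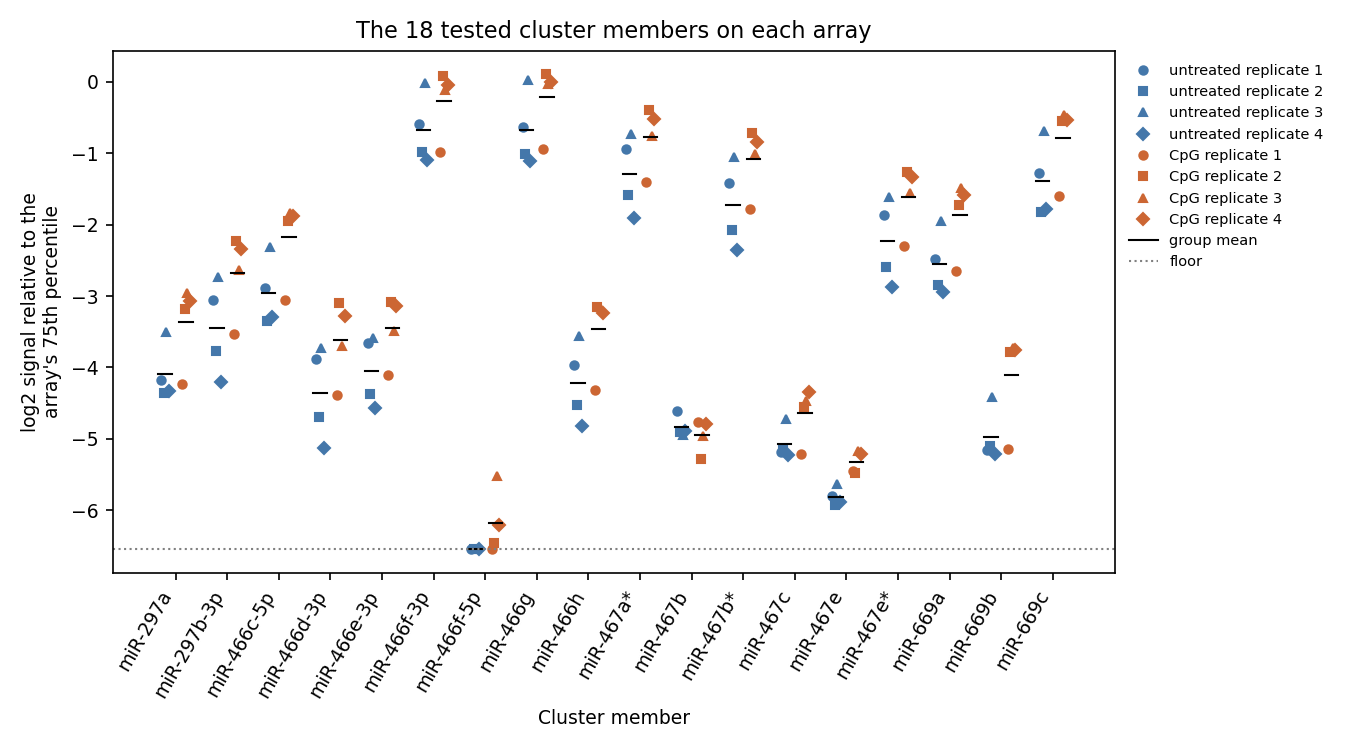
Log2 signal relative to the array's 75th percentile for the 18 tested members, on each untreated (blue) and CpG (orange) array, with a symbol for each replicate number, black lines at group means and a dotted line at the floor of -6.55. In most members untreated replicate 3 (blue triangle) is the highest untreated point and CpG replicate 1 (orange circle) the lowest CpG point. miR-467e is the only member whose groups do not overlap.

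Over the family, then, the means were higher with CpG almost throughout, but 1 difference passed the test. Of 25 members, 18 were detected on at least 3 arrays of a group and could be tested, and the 7 others could not. Of the 12 detected on all arrays, whose entry did not rest on either group, 12 had a higher mean with CpG, against 29.4% of the 177 miRNAs detected on all arrays, and their median difference was 0.63, against -0.26. Over all 18 it was 17, against 35.4% of all 212 tested miRNAs, with a median of 0.61 against -0.19. miR-467e, miR-466f-5p and miR-669b entered only through the CpG group, which favours a higher mean there, and these are descriptions. In limma 1 member passed upward, where 7.55% of all tested miRNAs did, and 0 passed downward, against 6.6%. At an unadjusted p under 0.05, 6 members were higher and 0 lower, where 13.7% of all tested miRNAs were higher. The groups did not overlap, with CpG above, in 1 member and in 7.08% of all tested miRNAs. The members vary together across the arrays, so that these counts are not 18 separate observations. Within the first row of the slide 17 members had a difference above 0, with a median of 0.53, and within the second row 17, with a median of 0.70.

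The number of members that passed changed with the scaling between arrays. With no scaling, all 18 tested members passed upward, at differences between 0.69 and 1.67, but so did 41.5% of all tested miRNAs, whose median difference was then 0.60. When arrays were scaled on 4 bright control features of the array, a choice made after seeing the data, 14 members passed upward, with 31.6% of all tested miRNAs and a median of 0.35 over them. The distance between the members' median and that of all tested miRNAs was 0.81 under these scalings and under the 75th percentile alike. Each of these uses 1 value per array, which moves all differences alike except at the floor. The equal distance was thus nearly fixed in advance and is no sign of robustness. It was 0.65 with quantile normalization and 0.088 with normexp. With normexp, 8 members passed downward, at a members' median of -0.17, where 65.6% of all tested miRNAs passed downward with a median of -0.26. In that setting an offset of 50 intensity units was added, and 13 of the 18 tested members were under 50 units on all untreated arrays. Under normexp 6 of the 18 tested members had a difference above 0, against 17 with the 75th percentile and 18 without scaling or with control features.

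**Figure D4:**
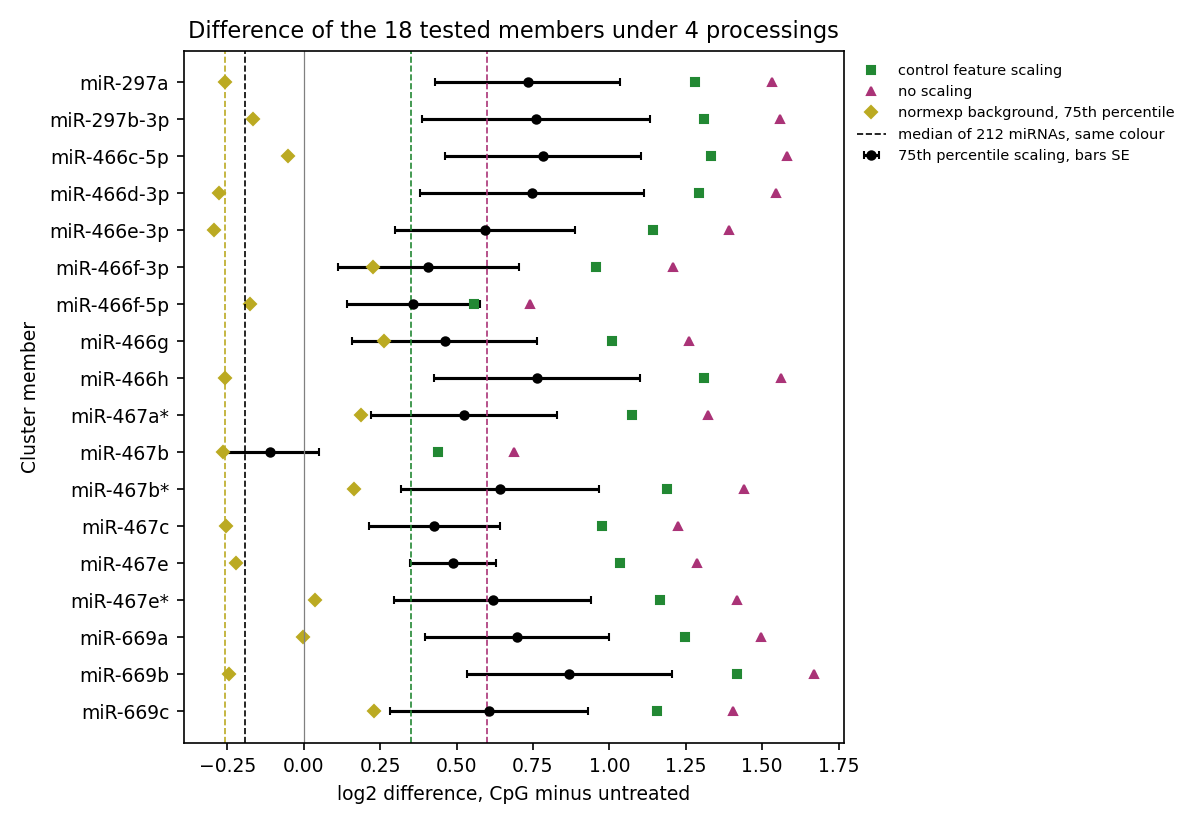
Log2 difference (CpG minus untreated) of the 18 tested members with 75th percentile scaling (black, bars SE), control feature scaling (green squares), no scaling (purple triangles) and normexp background correction (yellow diamonds). Dashed lines in the same colours mark the median of all 212 tested miRNAs, at -0.19, 0.35, 0.60 and -0.26. Under the first 3 settings all 18 members lie to the right of the line of their colour. With normexp most still do, several of them close to it, while miR-466d-3p, miR-466e-3p, miR-466h and miR-467b lie to its left.

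In member after member the same array was highest among the untreated and the same array lowest with CpG. In all 12 members detected on every array, untreated replicate 3 was the highest untreated array. CpG replicate 1 was the lowest CpG array in all 12 and lay below untreated replicate 3. It lay within the untreated range in all 12, and in 9 CpG replicates 2, 3 and 4 lay above every untreated array. In the mean over the 12, CpG replicate 1 was also below untreated replicate 1 (-2.57 against -2.24), so that the overlap did not rest on untreated replicate 3 alone. Among the 165 other miRNAs detected on all 8 arrays, untreated replicate 3 was the highest untreated array in 22 (13.3%) and CpG replicate 1 the lowest CpG array in 41 (24.8%). Before scaling, where these were also the brightest untreated and the dimmest CpG array, the counts were again 12 and 12 members, and 87 (52.7%) and 103 (62.4%) of the others. The mean over the 12 members was -2.24, -2.77, -1.81 and -2.94 on untreated replicates 1 to 4 and -2.57, -1.50, -1.62 and -1.54 on CpG replicates 1 to 4. Neither array was at odds with its label by miR-155, which read 2.81 on untreated replicate 3, the highest of its group, and 3.93 on CpG replicate 1, against 4.28 to 4.38 on the other CpG arrays. Without CpG replicate 1, 13 members passed in limma and 71 miRNAs in all, and without untreated replicate 3, 6 members and 37 miRNAs. Without any 1 of the 6 other arrays 0 members passed, with 1 to 13 members at an unadjusted limma p under 0.05. The share of all tested miRNAs at that unadjusted p was not counted with an array left out.

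By the median over pairs, the members varied together more closely than other miRNAs did. For every pair among the 12 members, the SD over the 8 arrays of the difference between their log2 signals was computed, and a small SD means that the pair rose and fell together. Its median over 66 pairs was 0.19, against 0.41 over the 13530 pairs of other miRNAs detected on all arrays and 0.76 for a member with a non-member. The closest pairs of members were miR-467b* with miR-467e* and miR-466f-3p with miR-466g, at 0.038 and 0.039. Closer pairs existed outside the family, down to 0.028 among other miRNAs and 0.021 for a member with a non-member. The most distant pair of members was miR-297a with miR-297b-3p, at 0.32, whose log2 difference moved by 0.97 over the arrays. Members of 1 subfamily were no closer to each other (median 0.20 over 15 pairs) than members of different subfamilies (0.18 over 51 pairs). These are descriptions over 8 arrays that share their scaling, and some members share probe annotation.

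The probes are described next. Each member's value is the mean of its own probes, so their agreement with it is no separate support. The same share over the probes of other miRNAs was not counted. All 37 probes of the 12 members detected on all arrays had a higher mean with CpG, by 0.33 to 0.99 with a median of 0.61, over targets of 13 to 21 bases. Of those, the 25 probes whose spots were mostly well above background on all 8 arrays differed by 0.33 to 0.80. For miR-466f-3p, whose 4 probes read 14, 15, 16 and 17 bases of the same target, the differences were 0.49, 0.48, 0.39 and 0.33. For miR-467b*, with targets of 13 to 16 bases, they were 0.65, 0.73, 0.60 and 0.60.

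The shared profile was not limited to the repeat family. Each of the 177 miRNAs detected on all arrays was compared with the members' mean profile by the SD of its deviation from it over the 8 arrays, a member being set against the 11 others. The members' SDs ran from 0.098 to 0.20. Those of the 165 non-members had a median of 0.75, yet 9 of them (5.45%) were at or under the members' highest value. These were miR-207 (0.094), miR-468 (0.10), miR-672 (0.11), miR-483* (0.11), miR-574-5p (0.12), miR-574-3p (0.13), miR-485* (0.14), miR-877* (0.16) and let-7d* (0.16), all named after their values were seen. miR-485* belongs to the Dlk1-Dio3 cluster. miR-207 was closer to the profile than any member. Since the 9 were picked for this profile, the order of the arrays in them and their differences of 0.43 to 0.79 follow from the choice.

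RefSeq held the mature sequence of 3 of these 9 under the array's name, shown because they can be set against the repeats above, with the seed in capitals.
miR-574-5p: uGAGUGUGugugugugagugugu
miR-574-3p: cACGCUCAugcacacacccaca
miR-207: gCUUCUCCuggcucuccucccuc
miR-574-5p holds UGUGUG and miR-574-3p holds ACACAC, as the relatives of the cluster do, while miR-207 holds neither. RefSeq (GRCm38.p6) places miR-574-5p and miR-574-3p on chromosome 5 and miR-207 on chromosome 4, away from Sfmbt2. Whether probe chemistry, RNA input or cell make-up moved with this profile was not tested.

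**Figure D5:**
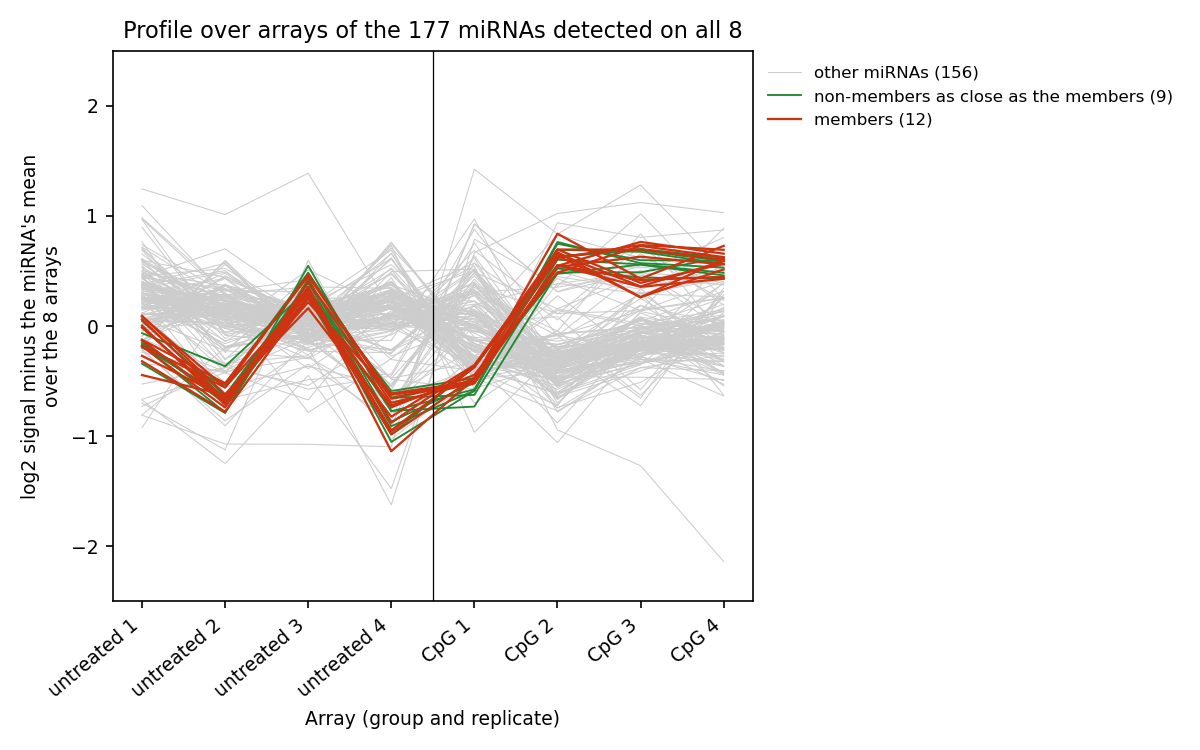
Log2 signal on each array minus the miRNA's mean over the 8 arrays, with 1 line for each of the 177 miRNAs detected on all arrays. The 12 members (red) and the 9 non-members as close to their mean profile as the members are (green) peak at untreated replicate 3 and at CpG replicates 2, 3 and 4 and dip at CpG replicate 1, while most of the 156 others (grey) do not.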

How the data were processed

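RNA of 8 samples was hybridised to 1-colour (Cy3) Agilent mouse miRNA arrays. Per the file headers, the authors' scanner files, made with Feature Extraction 9.5.3.1, hold background-subtracted intensities per spot, not scaled between arrays, and the authors deposited a summary intensity and detection flag per miRNA. The submitters' processing notes name limma; how it was used is not stated there.

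Processed intensities were averaged over unflagged spots and then over probes, divided by a scaling value per array (the 75th percentile of the 177 mouse miRNAs that all 8 arrays detected), raised to a floor of 0.0107 where lower, and taken as log2. The 212 miRNAs detected on at least 3 arrays of a group were tested with limma 3.58.1 in R 4.3.3 (Benjamini-Hochberg over 212, threshold 0.05). The fit was also run on simulated data with noise independent between miRNAs, which does not cover deviations that members share. Members, lists and the naming rule were chosen with earlier results of these data known, so counts and shares over members carry no p-value, also where an exact permutation test had been planned. Named with every value were the members detected on all arrays; with values, those past the threshold, detected on all arrays of 1 group and none of the other, or brightest in a subfamily; the rest by detection. Values of further tested members, and the 9 non-members, were added after seeing them. The number of arrays limits the precision. Same-numbered samples did not deviate together over the 212 miRNAs in all pairs (r = 0.28, -0.26, 0.25 and 0.096), and numbers were not taken as pairs. With so few arrays these values cannot decide whether the samples were paired. The authors' array names are numbered alike in both groups, without saying what the numbers mark, and a fit with the replicate as a block is given below. Alternatives were other scalings, backgrounds, filters, floors, blocks and each array left out. Python 3.11.15 was used.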

Additional observations from a re-analysis of the deposited data

Results flagged for a closer look

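In groups of 4 arrays, a value was set apart when its gap to the nearest other was a larger part of the group's range than Dixon's 95% critical value allows. Of 40 groups of values checked, 8 held such a value, where chance gives about 1 in 20. The members are not independent, and 5 of the 8 are the same array. CpG replicate 1 read lower than the other CpG arrays in miR-466c-5p (-3.05, against a mean of -1.89 for the 3 others), miR-466g (-0.94 against 0.03), miR-466h (-4.31 against -3.18), miR-669b (-5.15 against -3.76) and miR-669c (-1.60 against -0.51). Untreated replicate 3 read higher than the other untreated arrays in miR-467c (-4.73 against -5.19) and miR-669b (-4.41 against -5.16). Untreated replicate 1 read higher in miR-467b (-4.61 against -4.91). What set these arrays apart was not tested.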

How the results depend on the processing

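Of 30 miRNAs and 1 member passing in limma, other scalings left 88 and 18 (none), 18 and 0 (median), 17 and 0 (quantile), 23 and 0 (75th percentile over all mouse miRNAs) and 69 and 14 (control features, chosen after seeing the data, as was the percentile without the members, with 22 and 1). Other processing left 143 and 8 (normexp), 16 and 0 (brightest probe), 3 and 0 (no filter), 30 and 0 (only miRNAs detected on all arrays, which drops miR-467e), 48 and 0 (floor 2 times higher) and 28 and 0 (slide row block). Members at an unadjusted limma p under 0.05 numbered 1 to 14 where 0 passed. The share of all tested miRNAs at that p was not counted in these settings, so these numbers cannot be called particular to the family. Leaving out 1 array gave 5 to 71 miRNAs and 0 to 13 members. The replicate block left 38 and 1, with the differences in members detected (3.75) and in share (0.538) unchanged by construction.

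The difference in members detected was 1.5 under a common scaled limit and 3.25 to 4.25 with 1 array left out. The difference in share was 0.0459 with normexp and 0.377 to 0.751 with 1 array left out. With normexp, 7 members changed sign and passed downward, at -0.26 (miR-297a), -0.28 (miR-466d-3p), -0.29 (miR-466e-3p), -0.26 (miR-466h), -0.26 (miR-467c), -0.22 (miR-467e) and -0.25 (miR-669b). miR-467b turned upward and passed without scaling (0.69) and with control features (0.44). The cause was not tested. Of 405 member values under 23 alternatives, 329 kept direction and side of the threshold. Signals near background limit miR-297c, miR-466f-5p, miR-467a and miR-467e, which no untreated array detected.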
